A study of Danio rerio with 12 samples.

Results

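Yap and Taz are the transcriptional co-activators held in check by the kinases of the Hippo pathway, and they act in the nucleus through the DNA-binding Tead proteins. Dorsal forerunner cells are a small group of cells that runs ahead of the dorsal margin of the zebrafish gastrula and later builds Kupffer's vesicle, the ciliated left-right organizer of the fish embryo. The comparison described here asked which transcripts of the forerunner cluster differed when both co-activators had been knocked down, before the vesicle has formed. It set 4 libraries of Yap/Taz knockdown (Yap/Taz KD) clusters against 4 libraries of control clusters, over every gene whose mean over all 12 libraries of the series reached 1 normalised read count. That left 17609 of the 31953 genes in the table.

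Every cluster was dissected by hand from a Tg(sox17:GFP) embryo that had been injected at the start of cleavage, raised at 29 °C and collected at 90% epiboly. Yap/Taz KD embryos had received 4 ng of Yap MO1 together with 4 ng of Taz MOsp1, and control embryos 8 ng of a standard morpholino, so that the total dose was equal and the controls carried a morpholino and the transgene as well. Another group of 4 libraries, from Vgll4l knockdown (Vgll4l KD) embryos, is given beside the others only where a gene's level in both knockdowns is of interest. A morpholino lowers the protein of its target and leaves an unknown remainder, and it reaches the whole embryo when it is injected this early, so that the surrounding tissues were knocked down too. A cluster is a bulk sample, in which fewer cells of a type and less RNA per cell cannot be told apart.

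The libraries themselves bear on every value given here. The Yap/Taz KD libraries held 9071323 to 10774775 reads in genes, against 4487894 to 6148871 in the control libraries, and the deeper libraries had reads for fewer genes, 14334 to 14605 against 15363 to 16153. Libraries of a group were close to copies of each other: the squared difference between Yap/Taz KD libraries was 1.75 to 2.64 times what counting noise alone gives, and the control libraries fell into pairs, 1.94 for replicates 1 and 2 and 1.76 for replicates 3 and 4, with 4.91 to 6.78 across the pairs. No pair agreed within sampling noise, but this alone cannot show that libraries are separate samples. The paper describes 4 isolated clusters per condition as biological replicates, and all 8 libraries were counted as samples. The p-values measure only the spread between these libraries, which may be technical. The forerunner markers sox17 and sox32 stood at 9566 normalised read counts or more in each of the 8 libraries. Both were lower in Yap/Taz KD libraries, sox17 with a mean of 9686 against 18140 and sox32 with 12884 against 27536. Other forerunner genes given below fell by more, such as foxj1a and vgll4l, or were nearly level, such as noto. Genes listed for another tissue and mitochondrially encoded genes moved with the knockdown: the 27 genes of a yolk syncytial layer list held 2.41% to 2.45% of all counts in Yap/Taz KD libraries, against 0.397% to 0.433% in controls, and the 13 mitochondrially encoded genes 9.3% to 9.48% against 4.69% to 4.85%. Of the mitochondrially encoded genes 6 of 13 rose and none fell. Whether these counts come from other cells was not tested, nor was their part in the results.

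The difference between the groups was very wide. At an adjusted p under 0.05 and a log2 fold change of at least 1 (limma on log2 of the normalised read count plus 1, Benjamini-Hochberg over all 17609 genes), 5257 genes (29.9% of those tested) rose in Yap/Taz KD clusters and 6746 (38.3%) fell, together 68.2%. In 14253 genes (80.9%) the 4 Yap/Taz KD values did not overlap the 4 control values. These shares are the background for every list of genes below. A list of which about 3 in 10 members rose and 4 in 10 fell did no more than the whole transcriptome. A gene without overlap between the groups was the rule. The lists were not matched to all genes for abundance, with which the share of genes that passed differed. The median log2 fold change over all genes was -0.27, and -0.16 after TMM scaling, a shift of 0.11 in the median.

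The share of genes that passed differed between classes of abundance. Among the 1135 genes with a mean of 1000 to 10000 normalised read counts over the 8 libraries, 37.4% passed the test and the median absolute log2 fold change was 0.76, while among the 6088 genes with a mean of 10 to 100, 84.6% passed and the median absolute log2 fold change was 4.11. It was 1.72 below a mean of 10 (57.9% passed), 1.56 from 100 to 1000 (65%) and 0.85 in the 58 genes above 10000 (41.4%), so that the order did not follow abundance throughout. Some genes of middle abundance were read in one group and hardly at all in the other. Among genes without a single read in the 4 Yap/Taz KD libraries, 541 averaged 50 or more normalised read counts in controls, and the converse held for 138 genes, although the Yap/Taz KD libraries were the deeper ones. For many genes the pathway accounts below therefore give the values library by library or as group means, since the same fold change can rest on many counts or on few. Other genes are given by log2 fold change alone. Some of these rises rest on few control reads, such as those of birc2 and dazl with 2 each.

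The largest falls among genes with at least 500 normalised read counts in the higher group included genes of well-known function. tet2, which encodes an enzyme that oxidises methylated cytosine, stood at 0.666, 0.798, 1.44 and 0.73 in the Yap/Taz KD libraries, against 1833, 1897, 1302 and 1419 in the controls (log2 fold change -9.72 ± 0.18, here and below ± SE). gli3, a transcription factor of the Hedgehog pathway, stood at 0.666, 0.798, 0.722 and 0.73 against 1096, 1103, 959 and 983 (log2 fold change -9.22 ± 0.08). Over the 4 Yap/Taz KD libraries gli3 had 4 reads and tet2 had 5, so that these SEs may understate the counting error. No read of epha4l, an ephrin receptor gene by its name, of tacr1a, a tachykinin receptor, or of six3a, a forebrain transcription factor, was found in any Yap/Taz KD library, which makes their control means at least 1507-fold, 1200-fold and 1066-fold higher when 3 reads over the group are taken as the floor. The same held for tmem79a, at least 1225-fold. SANBR and znf1004 had 1 read each over the 4 Yap/Taz KD libraries, against 817 ± 87.4 and 729 ± 67.7 normalised read counts (mean ± SD, n = 4) in the controls. The rule that picked these 8 genes required groups without overlap, so that their separation by library is no result. All 8 were low in Vgll4l KD clusters too, with means from 1.19 (tmem79a) to 6.23 (tet2) normalised read counts. Their falls against these controls are thus not particular to Yap/Taz KD.

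Of the genes on the rising side, nr5a2, a nuclear receptor of endodermal organs, stood at 963, 1025, 982 and 1091 in Yap/Taz KD libraries and at 3.24, 3.05, 1.13 and 2.37 in controls (log2 fold change 8.25 ± 0.22). phlda1 stood at 879, 881, 915 and 914 against 6.48, 0, 2.25 and 0 (8.66 ± 0.65), slc7a7, an amino acid transporter, at 1036 ± 20.9 against 2.53 ± 1.68 (mean ± SD, n = 4 each), and WDR44 at 782 ± 32.6 against 2.3 ± 2.86. The other genes that the rule picked, nat8l, ubox5, myo3b and dhx32a, had 2 or 3 reads in all 4 control libraries together, so that their ratio is only loosely bounded: that of nat8l was 807 (95% exact interval of counting error 276 to 3914) and that of dhx32a 522 (95% exact interval of counting error 179 to 2533).

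**Figure D1:**
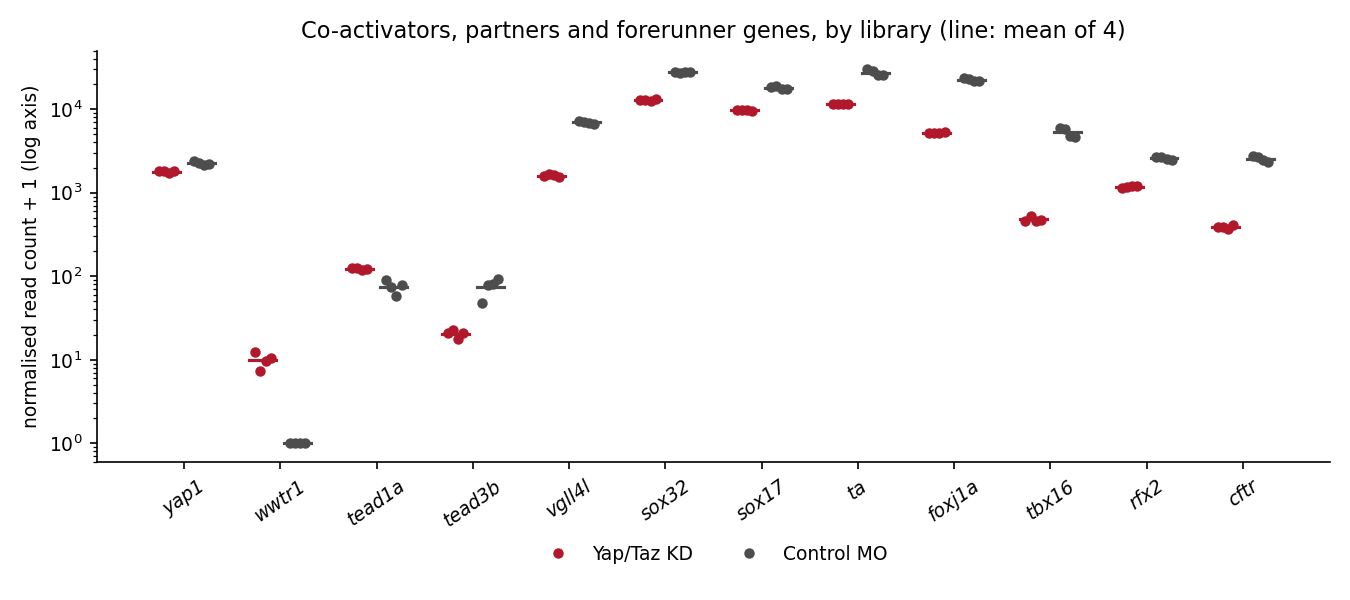
Normalised read count plus 1 on a log axis for 12 genes, 1 point per library, Yap/Taz KD left of control for each gene. yap1, sox17 and sox32 stayed within a factor of about 2 between the groups, vgll4l, foxj1a and cftr were separated by more, and wwtr1 was read only in the Yap/Taz KD libraries.

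The targeted genes came first as a check of the labels, with the limit that a morpholino need not change the RNA it binds. yap1 had 1802, 1797, 1738 and 1797 normalised read counts in the Yap/Taz KD libraries, against 2391, 2289, 2122 and 2200.1 in the controls, a log2 fold change of -0.33 ± 0.04 that was below the threshold of 1 although the groups did not overlap. wwtr1, the gene of Taz, was close to the limit of detection, at 11.3, 6.39, 8.66 and 9.49 in Yap/Taz KD libraries and at 0 in every control library, so that it was at least 8.76-fold higher in the knockdown. These RNA levels do not check the knockdown.

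The partners of the co-activators did not move together. tead1a, the most often read of the 4 Tead genes in Yap/Taz KD clusters, had 125, 125, 118 and 123 against 89, 73.2, 56.4 and 77 in controls (log2 fold change 0.74 ± 0.13, under the threshold), while tead3b fell to 20, 21.6, 16.6 and 19.7, against 46.9, 77.8, 80 and 91.2 in controls (-1.84 ± 0.21). tead1b and tead3a stayed at 5.59 or less in each of the 8 libraries, and the rise called for tead3a (1.80 ± 0.41) rests on these few counts. Vgll proteins bind Tead in place of Yap and Taz, and vgll4l, the member that marks the forerunner cells, fell to 1606 ± 53.6 in Yap/Taz KD clusters, against 6944 ± 266 in controls (mean ± SD, n = 4 each; -2.11 ± 0.03). vgll4a and vgll4b were at most 27.2 in any library and did not pass. Of 10 tested genes of this group, 2 rose, 3 fell and 5 did not pass.

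Upstream of Yap and Taz, the genes of the Hippo cascade fell more often than they rose, as did all genes tested. Of 22 tested genes 10 fell (45.5%, against 38.3% of all genes), 2 rose (9.09%, against 29.9%) and 10 did not pass. Together 54.5% passed, against 68.2% of all genes. The median log2 fold change was -0.94 against -0.27 over all genes. Within the kinase core, the Hippo kinase gene stk3 rose to 223, 249.9, 257 and 267 in Yap/Taz KD libraries, against 43.7, 45.8, 50.7 and 42.6 in controls (2.42 ± 0.08). The Lats kinases, which phosphorylate Yap, had positive log2 fold changes under the threshold, 0.63 ± 0.08 for lats1 and 0.78 ± 0.13 for lats2, and the Mob1 co-factor gene mob1bb fell to 92.6, 80.6, 79.4 and 63.5, against 911, 911, 764 and 785 (-3.41 ± 0.12). The falls lay mostly among the upstream regulators, of which 9 of 15 fell. nf2b, a zebrafish gene of the Merlin tumour suppressor, fell to 743 ± 26.9, against 2751 ± 193 (-1.88 ± 0.05), and frmd6, another FERM-domain gene of the cascade, had -1.55 ± 0.05. The Kibra gene wwc1 (-2.41 ± 0.18), the angiomotin gene amotl2a (-1.20 ± 0.04) and the junctional scaffold tjp2a (-1.54 ± 0.04) fell as well. dchs1b, a Dachsous cadherin, and taok3a, a kinase that acts on Hippo, had no read in any Yap/Taz KD library, which puts the controls at least 137-fold and 135-fold higher. The gene with the paired symbol, dchs1a, is not in this list and rose (log2 fold change 2.085).

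Genes that Yap and Taz activate in mammalian cells were read next. Of 36 zebrafish genes named after them 29 were tested, and 16 fell (55.2%, against 38.3% of all genes), 4 rose (13.8%, against 29.9%) and 9 did not pass; their median log2 fold change was -1.21. The list shares members with the Hippo cascade above, such as amotl2a, which fell (-1.20 ± 0.04), and lats2, which did not pass (0.78 ± 0.13). Some of the best known targets were nearly silent here. cyr61 reached at most 0.798 in any of the 8 libraries, and the connective tissue growth factor genes ctgfa and ctgfb were under the filter. cyr61l1 was read throughout, at 239.8, 292, 258 and 261 in Yap/Taz KD libraries and 303, 333, 333 and 298 in controls (-0.27 ± 0.07), a difference under the threshold. Clear falls were those of igfbp3, an insulin-like growth factor binding protein, at 0, 0, 0.722 and 0 against 304, 323, 233 and 255, and of fosl1a, an AP-1 transcription factor, at 2, 1.6, 0.722 and 1.46 against 206, 183, 183 and 167 (-6.27 ± 0.19). The kinase gene nuak2 fell to 16, 16, 15.2 and 19.7, against 264, 253, 272 and 217 (-3.83 ± 0.11), and myof, a membrane-repair protein, fell by less, -1.27 ± 0.05. ankrd1a, a muscle ankyrin repeat gene, went the other way: it stood at 58, 51.9, 59.9 and 66.4 in Yap/Taz KD libraries, against 0, 0, 0 and 1.18 in controls (5.62 ± 0.28), and gadd45ab, a stress response gene, at 199.9, 217, 198 and 194 against 1.62, 3.05, 1.13 and 0 (6.54 ± 0.40). The tissue factor genes f3a and f3b lay in opposite directions, with f3a at 0 in every Yap/Taz KD library against 183, 111, 116 and 98.3 in controls and f3b at 40.6, 40.7, 33.2 and 27 against 0 in every control library.

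**Figure D2:**
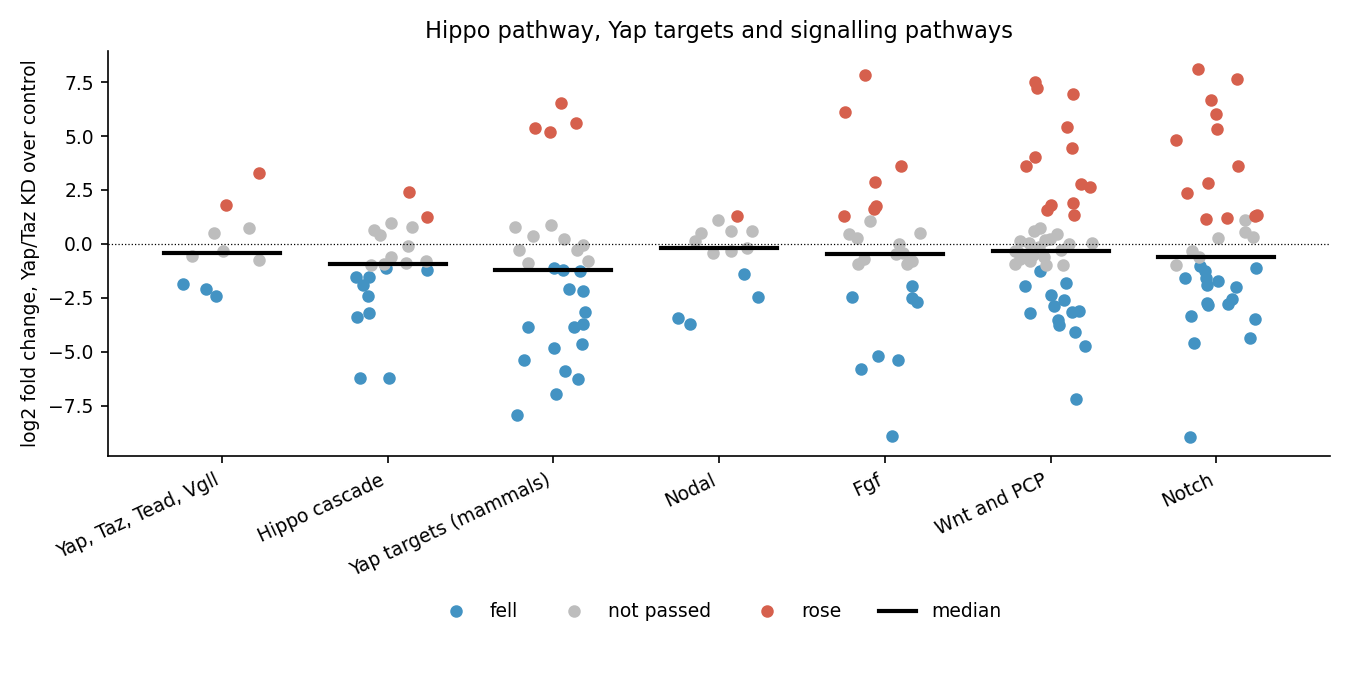
Log2 fold change of Yap/Taz KD over control, 1 point per tested gene, for 7 gene lists, with genes that rose, fell or did not pass marked apart and the list's median as a bar. The medians lie between -1.21 and -0.20, with single genes beyond 8 in either direction in the Notch list.

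The transcription factors that specify the forerunner cells and drive Kupffer's vesicle formation were read next. Of 11 tested, 6 fell (54.5%, against 38.3% of all genes), 2 rose (18.2%, against 29.9%) and 3 did not pass. sox32, the SOX factor that endoderm and forerunner cells require, had 12805, 12984, 12655 and 13092 in Yap/Taz KD libraries and 27559, 27027, 27874 and 27686 in controls (-1.10 ± 0.02, and -0.96 under TMM scaling, where the call is lost), and its target sox17 9804, 9657, 9716 and 9566 against 18501, 19129, 17483 and 17446 (-0.90 ± 0.03, just under the threshold). The Brachyury gene ta stood at 11524 ± 106 against 27409 ± 2117 (mean ± SD, n = 4 each; -1.25 ± 0.05), and rfx2, which works with Foxj1 on ciliary genes, at 1184 ± 35.7 against 2608 ± 117 (-1.14 ± 0.04). Each of these genes was thus about 2-fold lower and still had over 1000 normalised read counts in every Yap/Taz KD library.

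The falls were steeper for foxj1a and tbx16. foxj1a, the master regulator of motile cilia, fell to 5123, 5194, 5204 and 5301, against 23811, 23144, 21689 and 21541 in controls (-2.11 ± 0.03), and its paralog foxj1b to 0.666, 0, 0.722 and 1.46, against 288, 322, 242 and 227 (-7.36 ± 0.28). tbx16, a T-box factor of mesoderm, fell to 459, 521, 462 and 475, against 5946, 5789, 4803 and 4674 (-3.46 ± 0.09). noto, a homeobox gene of axial mesoderm and forerunner cells, showed almost the same level in both groups, 3401 ± 32.8 in Yap/Taz KD clusters and 3709.8 ± 112 in controls (-0.12 ± 0.02). rfx3 and rfx4 were the members that rose, from a low base: rfx3 had 111, 98.2, 86.6 and 85.4 against 32.4, 38.1, 48.5 and 46.2, and rfx4 43.3, 61.5, 45.5 and 48.2 against 0, 3.05, 1.13 and 0 (4.87 ± 0.46).

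Nodal signals specify mesendoderm and, later, the left side of the body. Of 13 tested genes of this pathway 4 fell, 1 rose and 8 did not pass, 38.5% called against 68.2% of all genes. Its ligand ndr1 fell sharply, to 44, 43.1, 46.9 and 53.3 in Yap/Taz KD libraries, against 502, 525, 514 and 546 in controls (-3.45 ± 0.07), and the signal transducer smad3a fell to 59.3, 79.8, 83 and 63.5, against 170, 189, 188 and 211 (-1.41 ± 0.13). The co-receptor gene tdgf1 rose to 484, 476, 502 and 444, against 178, 219.7, 188 and 197 (1.28 ± 0.07). The receptor acvr1ba (-0.20 ± 0.06) and smad2 (-0.33 ± 0.03) changed by less than the threshold, as did the feedback antagonist lft1, at 69.3, 73.5, 90.9 and 59.1 against 46.9, 38.1, 53 and 54.5 (0.59 ± 0.16); lft2 was at 2.25 or less in each library.

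Fgf signalling is needed in forerunner cells for cilia of normal length. Of 26 tested genes 8 fell (30.8%, against 38.3% of all genes), 7 rose (26.9%, against 29.9%) and 11 did not pass. Among ligands and receptors 6 of 13 fell and 1 rose. fgf1a was not read in any Yap/Taz KD library and stood at 539, 581, 441 and 401 in controls, at least 897-fold higher, and fgf17 fell to 3.33, 3.19, 7.22 and 4.38, against 262, 238, 188 and 216 (-5.40 ± 0.23). fgf8a, which was read in all libraries, had 955 ± 23.3 against 667 ± 95 (0.53 ± 0.10, under the threshold). Among the receptors, fgfr1a had 626, 707, 647 and 593 against 1247, 1146, 1219.8 and 1227 (-0.91 ± 0.06, under the threshold), fgfr4 fell (-1.95 ± 0.08), and fgfr1b fell to 2.66, 2.4, 2.17 and 2.92, against 219, 204, 187 and 185 (-5.82 ± 0.11).

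Of 13 feedback regulators and transcriptional targets of Fgf signalling 6 rose and 2 fell, where 29.9% of all genes rose and 38.3% fell. The phosphatase gene dusp6 rose to 4959, 5123, 4914 and 4974, against 2063, 2127, 1972 and 2107 in controls (1.27 ± 0.03), and dusp4 to 429, 439.9, 469.9 and 422, against 1.62, 1.53, 1.13 and 0 (7.83 ± 0.31). The inhibitors spry2 (1.64 ± 0.02) and spred1 (3.60 ± 0.18) rose too. The ETS factor gene etv5a rose to 3928 ± 57.6, against 529 ± 15.3 (mean ± SD, n = 4 each; 2.89 ± 0.02), whereas etv4 (-0.49 ± 0.04) and etv5b (-0.43 ± 0.05) stayed under the threshold in the negative direction. il17rd, the antagonist also called Sef, fell to 566 ± 15, against 3177 ± 159 (-2.48 ± 0.04). The ligand gene fgf3 was the one ligand that rose, to 101, 89.4, 108 and 98.5, against 0, 0, 0 and 3.55 (6.10 ± 0.51).

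Wnt signalling and planar cell polarity guide the movement of the cluster and the placing of cilia. Of 48 tested genes 14 fell, 13 rose and 21 did not pass, close to the shares of all genes for rises (27.1% against 29.9%) and under it for falls (29.2% against 38.3%). wnt11, the non-canonical ligand of gastrulation movements, had 1570.2, 1634, 1653 and 1633 in Yap/Taz KD libraries and 3507, 3374, 2888 and 2954 in controls (-0.97 ± 0.07, just under the threshold). wnt4a was not read in any Yap/Taz KD library and had 164, 175, 132 and 123 in controls, while wnt8a had 181, 198, 167 and 201 against 0, 1.53, 0 and 0 (7.22 ± 0.32). The symbol wnt8a matched 2 gene IDs, and only the ID with the higher mean over the 12 libraries is given. Of the receptors, fzd8a fell to 75.3, 71.9, 63.5 and 61.3, against 688, 626, 594 and 613 (-3.20 ± 0.08), and the co-receptor lrp5 fell (-3.55 ± 0.29), while fzd10 (-0.68 ± 0.05), fzd7a (-0.79 ± 0.03) and fzd7b (-0.92 ± 0.06) changed by less than the threshold.

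Among planar polarity genes the core member vangl2 was nearly level, at 2748 ± 82 in Yap/Taz KD clusters and 3007 ± 124 in controls (-0.13 ± 0.04), and prickle1b fell (-1.24 ± 0.05). celsr2 rose to 441, 408, 422 and 441, against 1.62, 4.58, 0 and 1.18 (7.50 ± 0.47). Its symbol also matched 2 gene IDs, of which the one with the higher mean is given. axin2, a feedback target of canonical Wnt signalling, differed by less than the threshold (0.23 ± 0.06).

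Notch signalling sets cilium length and the share of motile cilia in Kupffer's vesicle. In all, 17 of 37 tested genes fell (45.9%, against 38.3% of all genes), 13 rose (35.1%, against 29.9%) and 7 did not pass. Of the receptors, notch1a had 564, 572, 531 and 550.2 in Yap/Taz KD libraries, against 3701, 3911, 3658 and 3699 in controls (-2.75 ± 0.03), notch1b had 12, 12.8, 10.1 and 14.6 against 342, 379.9, 303 and 262 (-4.59 ± 0.15), and notch3 fell by less (-1.93 ± 0.10). The ligand gene dla fell to 577, 578, 548 and 577, against 2155, 2057, 1658 and 1713 (-1.72 ± 0.09), and jag2b, with 1 read over the 4 Yap/Taz KD libraries, had 675, 645, 499 and 486 in controls. Together 8 of 13 ligands and receptors fell and 2 rose, dlb (2.38 ± 0.15) and dld (2.83 ± 0.29). Of 13 genes of signal processing and transduction 7 fell, 4 rose and 2 did not pass. The falls included the glycosyltransferase lfng, at 764 ± 41.9 against 5208 ± 344 (-2.77 ± 0.06), and the metalloprotease adam10a (-2.82 ± 0.09).

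The hairy-related repressors, listed here as Notch targets, rose in 7 of 11 cases and fell in 2, where 29.9% of all genes rose and 38.3% fell. Whether each of them responds to Notch in these cells was not tested. her9 had 554, 584, 544 and 603 in Yap/Taz KD libraries and 1.62, 0, 1.13 and 2.37 in controls (8.10 ± 0.35), her4.1 793, 782, 775 and 817 against 29.1, 15.3, 36.1 and 34.3 (4.81 ± 0.25), and her12 304, 296, 296 and 315 against 0, 4.58, 0 and 0 (7.63 ± 0.57). Both her2 (5.33 ± 0.14) and her15.1 (6.67 ± 0.47) rose as steeply, and her7, already read well in controls, had 1.29 ± 0.05. The exceptions were her1 (-1.58 ± 0.07) and heyl, which fell, and hey1 (-0.35 ± 0.08) and hes6 (-0.99 ± 0.02), which did not pass.

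Forerunner cells move as a cohesive group attached to the surface layer. Of 24 tested genes of migration and guidance 16 fell (66.7%, against 38.3% of all genes), 5 rose and 3 did not pass, the largest share of falls among the signalling and adhesion lists read here. The apelin receptor gene aplnra was not read in any Yap/Taz KD library and had 414, 430.3, 355 and 364 in controls, at least 715-fold higher, while the gene of its ligand, apela, rose to 776, 802, 784 and 745, against 233, 211, 232 and 229 (1.78 ± 0.04). The Eph receptor gene ephb4b fell to 1364 ± 65.7, against 5739 ± 120.4 (-2.07 ± 0.04). Of 4 tested matrix genes 3 fell and 1 rose: fibronectin fn1a had 526 ± 6.51 against 1210 ± 96 (-1.20 ± 0.06), fn1b had -3.58 ± 0.25, laminin lama5 had 0.666, 4.79, 2.17 and 4.38 against 146, 139, 126 and 107 (-5.18 ± 0.40), and the laminin gene lamc1 rose (1.18 ± 0.08). Of the integrin genes, itga5 fell (-1.31 ± 0.10), itgb1a rose (1.18 ± 0.10) and itgav did not pass (0.42 ± 0.17). The chemokine receptor gene cxcr4a had the same level in both groups, 2795 ± 22 and 2826 ± 159 (-0.01 ± 0.04), with overlapping values, and spns2, a sphingosine-1-phosphate exporter, rose (3.20 ± 0.06).

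Epithelial polarity genes all passed the test, in both directions. Of the 14 tested 10 fell and 4 rose, while of 21 junction genes 8 fell, 4 rose and 9 did not pass. Over the whole list of 35 genes 74.3% passed, against 68.2% of all genes. Falls made up 51.4%, against 38.3%, and rises 22.9%, against 29.9%. The apical determinant crb2a was not read in any Yap/Taz KD library and had 191, 154, 154 and 159 in controls. The genes of atypical protein kinase C moved in opposite directions: prkci fell to 73.9, 58.3, 64.2 and 65, against 408, 392, 366 and 326 (-2.49 ± 0.10), and prkcz rose to 159, 157, 167 and 164, against 0, 1.53, 0 and 0 (7.01 ± 0.32). So did the lateral determinants, where llgl2 fell (-1.42 ± 0.05) and llgl1 rose (5.11 ± 0.31).

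N-cadherin, cdh2, fell to 5182, 5092, 5229 and 4999, against 18331, 18406, 16883 and 16760 (-1.78 ± 0.04), whereas cdh1 (-0.84 ± 0.06) and cdh6 (0.22 ± 0.04) did not pass. cldn5a, a claudin needed for the vesicle's lumen, fell to 612 ± 17.3, against 1909.8 ± 54.2 (-1.64 ± 0.03), and the occludin gene oclna fell to 135, 153, 134 and 135, against 2134, 2161, 2044 and 1879 (-3.87 ± 0.06). Beta-catenin rose steeply, ctnnb1 to 3019, 3148, 2923 and 3300.1, against 189, 188, 202 and 149 (4.09 ± 0.09), and cldne, a claudin of the enveloping layer, differed by less than the threshold, 0.37 ± 0.04.

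The lumen of Kupffer's vesicle is filled by chloride and water transport. Of 25 tested genes 8 fell (32%, against 38.3% of all genes), 7 rose (28%, against 29.9%) and 10 did not pass. aqp3a, a water channel, fell to 35.3, 30.3, 33.2 and 22.6, against 4115, 3990.3, 3611 and 3327 (-6.92 ± 0.14), the steepest fall of a well-read gene in the list. pkd2, the cation channel of organizer cilia, had 2 reads over the 4 Yap/Taz KD libraries, against 149, 148, 139.8 and 146 in controls. The chloride importer slc12a2 fell (-1.99 ± 0.09), and so did the channel cftr, to 386 ± 15.2, against 2566 ± 205 (-2.73 ± 0.06). Of 6 tested genes of the proton pump and its accessory proteins 4 rose, 1 fell and 1 did not pass. The rises were those of atp6v1e1b, to 1009, 1034, 1089 and 1066, against 117, 105, 99.2 and 105 (3.29 ± 0.05), atp6v1aa, to 307, 300.2, 297 and 302, against 6.48, 7.63, 14.7 and 30.8 (4.50 ± 0.44), atp6v1h (3.20 ± 0.53) and atp6ap2 (1.75 ± 0.16), while atp6ap1b fell (-1.34 ± 0.05) and atp6v0ca was level (0.01 ± 0.04). The sodium pump subunits atp1b1a (0.04 ± 0.03) and atp1a1a.1 (-0.12 ± 0.06) overlapped between the groups, and atp1b3a rose (3.07 ± 0.06).

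**Figure D3:**
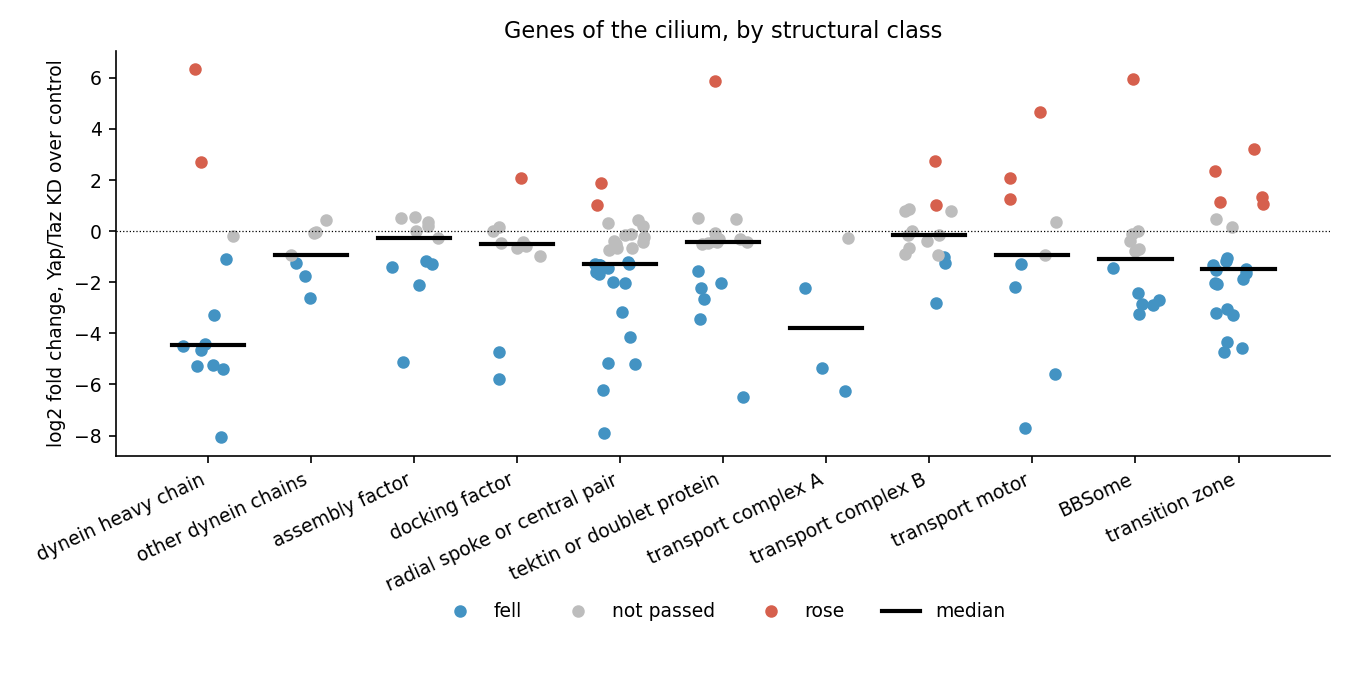
Log2 fold change of Yap/Taz KD over control for tested genes of the cilium, 1 point per gene, by structural class, with each class's median as a bar. Dynein heavy chains, with a median of -4.44, and complex A of intraflagellar transport, with -3.79, lie lowest, and assembly factors and complex B lie closest to 0.

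Ciliary genes are given by the part of the cilium they belong to. Over all genes tested 38.3% fell and 29.9% rose. Outer and inner dynein arms are the motors of the motile axoneme, and 9 of their 12 tested heavy chain genes fell, 2 rose and 1 did not pass. Over the whole dynein arm list 63.2% fell and 10.5% rose. Among genes with at least 50 normalised read counts, the 3 largest falls of the dynein arm list were dnah9l, dnah7l and dnah5l. Their values are not printed here, and the lowest log2 fold change of the list was -8.08. dnah5, an outer arm heavy chain, fell by little, to 1914, 1913, 1882 and 1885, against 4339, 4265, 3812 and 3817 (-1.09 ± 0.05, and -0.96 under TMM scaling, where the call is lost). dnah7 had 119.9, 156, 115 and 110.2 against 1211, 1332, 1180.3 and 1094 (-3.27 ± 0.12), dnah11 22.7, 16.8, 20.2 and 17.5 against 491, 424, 384 and 413 (-4.41 ± 0.12), and DNAH10 26, 33.5, 33.2 and 43.8 against 842, 876, 689.9 and 687 (-4.48 ± 0.16). The rises were those of DNAH3, at 188, 200.4, 196 and 182 against 1.62, 0, 4.51 and 1.18 (6.34 ± 0.47), and of dnah9 (2.71 ± 0.18). The light chain gene dnal1 fell (-1.25 ± 0.07), dnai2b had -0.92 ± 0.06, under the threshold, and dnali1 overlapped between the groups (-0.09 ± 0.05).

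Cytoplasmic factors assemble the dynein arms before these enter the cilium. Of 11 tested assembly factors 5 fell, none rose and 6 did not pass, with a median log2 fold change of -0.26 against -4.44 for the heavy chains. Assembly and docking factors together had 33.3% falls, against 38.3% of all genes, and 4.76% rises, against 29.9%. lrrc6 fell steeply, to 47.3, 43.1, 54.9 and 34.3, against 1781, 1680, 1368 and 1582 (-5.14 ± 0.15), dnaaf1 by less (-1.28 ± 0.04), and zmynd10 (0.35 ± 0.08) and ccdc103 (0.20 ± 0.02) did not pass. Of the docking and regulatory factors, armc4 (-0.59 ± 0.05), ccdc151 (-0.45 ± 0.06) and ccdc40 (0.18 ± 0.04) stayed under the threshold, drc1 fell to 7.99, 5.59, 7.94 and 11.7, against 519.7, 520.3, 439.7 and 542 (-5.80 ± 0.19), and CCDC39 rose (2.07 ± 0.05).

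Radial spokes, the central pair and the outer doublet give the axoneme its structure. Of 48 tested genes 23 fell (47.9%, against 38.3% of all genes), 3 rose (6.25%, against 29.9%) and 22 did not pass. Central pair genes included hydin, which fell to 51.3, 50.3, 46.9 and 44.5, against 474, 482, 383 and 414 (-3.15 ± 0.09), and SPAG6, which did not pass (-0.65 ± 0.03). Among the radial spoke genes rsph14 had 1 read over the 4 Yap/Taz KD libraries, against 288, 279, 272 and 236, while RSPH4A rose (1.88 ± 0.13). cfap52 (-1.98 ± 0.03), cfap53 (-1.66 ± 0.04) and the tektin gene tekt1 (-1.57 ± 0.07) fell, and tppp3 (-0.43 ± 0.06) and mns1 (-0.37 ± 0.03), among the most read of the list, did not pass.

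Intraflagellar transport builds and maintains the cilium. Of the 4 tested complex A genes, which carry cargo back to the cell body, 3 fell: ift140 to 28, 30.3, 18.8 and 24.8, against 2095, 2123, 1860.1 and 1965 (-6.27 ± 0.14), wdr19 to 10.7, 16, 9.38 and 13.1, against 554, 497, 508 and 566 (-5.35 ± 0.15), and wdr35 by less (-2.24 ± 0.08). Of 15 complex B genes, which drive transport outward, 3 fell, 2 rose and 10 did not pass. Over the whole transport list 35.7% fell, against 38.3% of all genes, and 17.9% rose, against 29.9%. ift88 fell to 213 ± 11.1, against 503 ± 43.2 (-1.23 ± 0.07), ift80 rose (2.76 ± 0.13), and ift52 (-0.40 ± 0.04) and ift57 (-0.14 ± 0.06) were nearly level. The motor subunits kif3a (2.09 ± 0.08) and kifap3a, at 6.66, 7.19, 6.5 and 2.19 against 1473, 1398, 1242 and 1072 (-7.69 ± 0.31), moved in opposite directions.

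The BBSome and the transition zone, the gate at the base of the cilium, fell in 21 of 34 tested genes (61.8%, against 38.3% of all genes). Rises numbered 6 (17.6%, against 29.9%). inpp5e, a phosphoinositide phosphatase of the cilium, fell to 13.3, 10.4, 13 and 14.6, against 366, 323, 315 and 311 (-4.58 ± 0.11), and cc2d2a (-3.21 ± 0.12), arl13b (-2.85 ± 0.06) and tmem67 (-1.62 ± 0.03) fell too. bbs1, at 373 ± 12.8 in Yap/Taz KD clusters and 368 ± 9.24 in controls, was level (0.02 ± 0.03), and tmem107 rose (2.34 ± 0.17).

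The study's own lists of genes with a known role in the organizer gave like counts. They had been chosen among genes expressed in these libraries, so that they are no independent sample. Of 134 genes whose loss disturbs forerunner cells or Kupffer's vesicle 63 fell (47.0%, against 38.3% of all genes), 15 rose (11.2%, against 29.9%) and 56 did not pass; of the 61 among them tied to the motile cilium 31 fell, 6 rose and 24 did not pass. Fewer of these genes rose than in the transcriptome as a whole, in both lists. Of 24 genes that the study probed by in situ hybridization, picked for their fall in Vgll4l KD, 15 fell, 1 rose and 8 did not pass; quo fell to 326, 346, 326 and 306, against 2097, 2016, 1829.7 and 1745 (-2.55 ± 0.07), and slc35d1a, a nucleotide sugar transporter, to 2324 ± 70.1, against 7211 ± 460.4 (-1.63 ± 0.05). abcc4, a transporter needed for cilium growth, was among the steepest falls, at 0, 0.798, 0 and 0 in Yap/Taz KD libraries against 194, 219.7, 172 and 152 in controls.

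**Figure D4:**
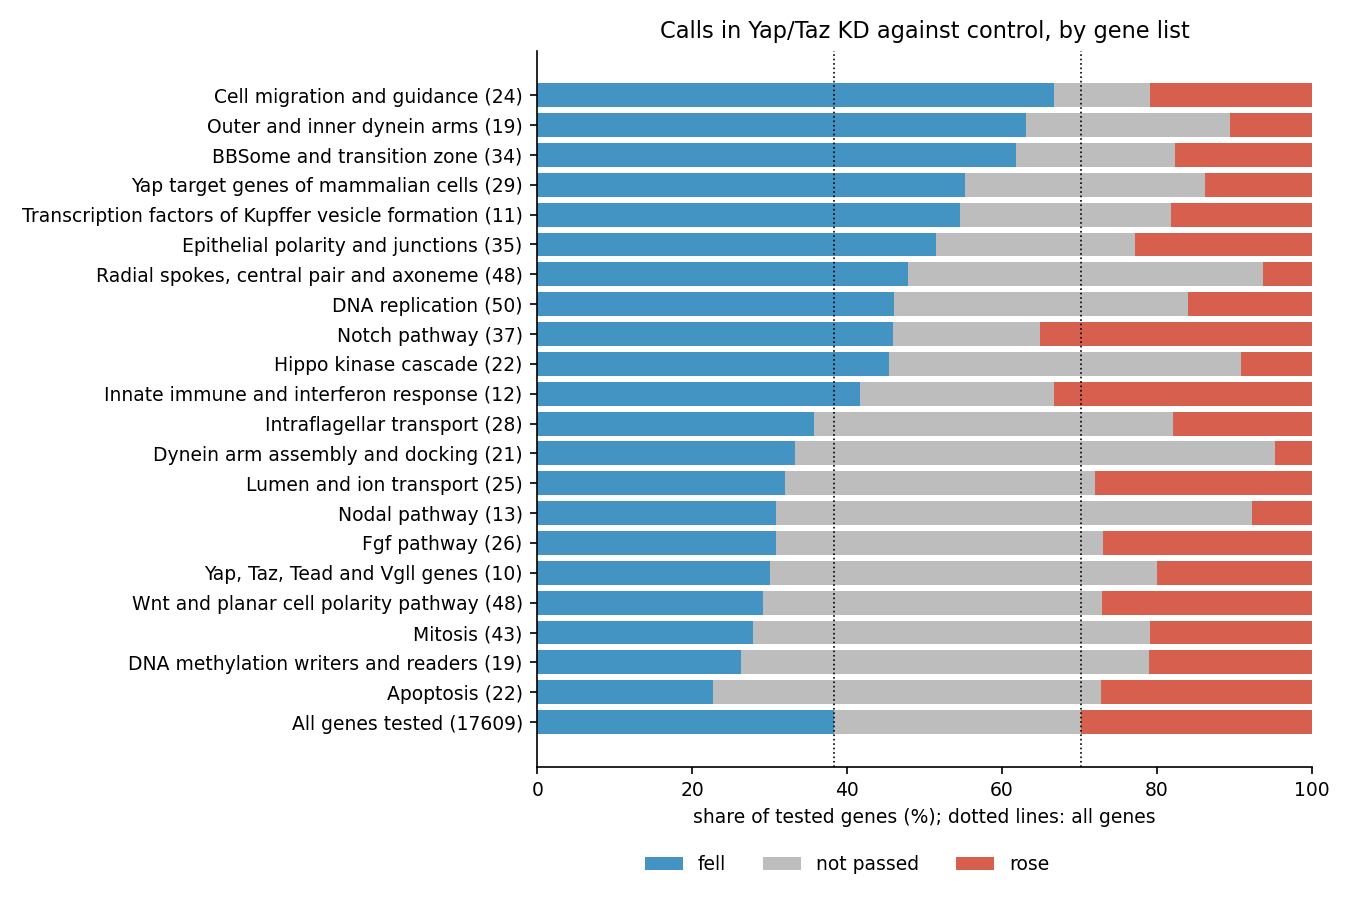
Share of tested genes that fell, did not pass or rose in Yap/Taz KD clusters, for 21 gene lists and for all 17609 genes, with the number tested beside each list. Migration and guidance, dynein arms and the BBSome with the transition zone have the largest shares of falls, above 60% each.

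A direct contrast with Vgll4l KD, in a fit of all 12 libraries, showed where the knockdowns differ for genes of the same program. Replicate 2 of the Vgll4l KD group stands apart from the others, and a second difference after each value leaves that library out. The genes given were chosen after their values were seen, and no list was counted in this contrast. Among the transcription factors sox32 averaged 12884 ± 193 normalised read counts in Yap/Taz KD clusters and 12952 ± 378 in Vgll4l KD clusters (mean ± SD, n = 4 each; difference on the log2 scale -0.01 and -0.02, adjusted p = 0.79), and foxj1a 5206 ± 73.2 and 4299.7 ± 99.7 (0.28 and 0.26, adjusted p = 2e-06). tbx16 was lower in Yap/Taz KD clusters, 479 ± 28.5 against 2284 ± 71.6 (-2.25 and -2.24, adjusted p = 6.7e-12), and so was rfx4 (-1.92 and -2.07, adjusted p = 0.00045), while rfx3 was higher (5.89 and 5.98, adjusted p = 8.2e-11). Axonemal and transport genes differed in both directions, and most of those named in the text were higher in Yap/Taz KD than in Vgll4l KD clusters. Only some of either direction are given here. In Yap/Taz KD clusters dnah5 averaged 1898 ± 17.5 against 97.4 ± 48.3 in Vgll4l KD (4.39 and 4.68, adjusted p = 3.7e-10), ift52 848 ± 28.3 against 26 ± 20 (5.22 and 5.65, adjusted p = 2e-09), and cfap126 978 ± 47.5 against 52.4 ± 33.7 (4.36 and 4.74, adjusted p = 2e-09). Lower in Yap/Taz KD clusters were wdr19, at 12.3 ± 2.91 against 229 ± 32.8 (-4.13 and -4.22, adjusted p = 2.1e-11), drc1, at 8.3 ± 2.52 against 108 ± 27.3 (-3.55 and -3.66, adjusted p = 1.6e-09), kifap3a (-2.75 and -2.67, adjusted p = 2.6e-07), DNAH10 (-1.46 and -1.57, adjusted p = 1.6e-06) and hydin (-1.36 and -1.47, adjusted p = 3.3e-07). The methyltransferase gene dnmt3bb.1 averaged 1518 ± 47.5 in Yap/Taz KD clusters and 48.9 ± 35.5 in Vgll4l KD (5.16 and 5.58, adjusted p = 1.9e-09).

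Genes of DNA methylation both fell and rose. Of 7 tested DNA methyltransferase genes and their partner uhrf1, 2 rose, 1 fell and 4 did not pass. The maintenance enzyme dnmt1 rose to 324, 315, 336 and 311, against 68, 76.3, 106 and 102 (1.88 ± 0.15), and the de novo enzyme dnmt3bb.2 had 2643 ± 13.9 against 4833 ± 241 (-0.87 ± 0.03, under the threshold). Levels of dnmt3bb.1 overlapped between the groups, 1518 ± 47.5 in Yap/Taz KD clusters and 1632 ± 98.3 in controls (-0.10 ± 0.05), and the methyl-binding gene mbd3b was nearly level (0.28 ± 0.03). Of 4 tested demethylation genes 2 fell and 2 did not pass. Their falls were the steepest of the list: besides tet2 above, tet1 fell to 1.33, 4.79, 1.44 and 1.46, against 147, 212, 163 and 95.9 (-5.64 ± 0.37).

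Cell cycle genes showed no common direction in mitosis and more falls in replication. Of 43 mitotic genes 12 fell (27.9%, against 38.3% of all genes), 9 rose (20.9%, against 29.9%) and 22 did not pass. Their median was -0.05, and 48.8% passed, against 68.2% of all genes. ccnb1, the mitotic cyclin, fell to 986 ± 31.2, against 2453 ± 110.1 (-1.31 ± 0.04), mki67, a proliferation marker, fell (-1.19 ± 0.02), and espl1, the separase that parts sister chromatids, fell to 7.99, 5.59, 5.05 and 2.92, against 499, 482, 463 and 406 (-6.24 ± 0.24). aurkb (3.00 ± 0.08) and the anaphase-promoting complex gene anapc1 (4.22 ± 0.04) rose, and cdc20 was level (0.03 ± 0.03).

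Of 50 tested replication genes 23 fell (46.0%, against 38.3%), 8 rose and 19 did not pass. Helicase subunits diverged: mcm5 fell to 56.6, 43.1, 49.1 and 62, against 682, 720.2, 632 and 592 (-3.62 ± 0.12), mcm3 fell (-1.97 ± 0.09), mcm7 rose to 911, 830.4, 849 and 957, against 123, 177, 192 and 187 (2.40 ± 0.14), and mcm6 did not pass (0.52 ± 0.07). pcna, the sliding clamp, differed by less than the threshold (0.45 ± 0.04). dhfr, which supplies folate for nucleotide synthesis, had the largest rise of the list, at 2027, 2062, 2057 and 1964 in Yap/Taz KD libraries and 14.6, 13.7, 15.8 and 18.9 in controls (6.93 ± 0.09).

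Apoptosis genes moved in both directions, with 6 rises, 5 falls and 11 below the threshold among 22. The rises made up 27.3%, against 29.9% of all genes, and the falls 22.7%, against 38.3%. Among genes that favour survival bcl2l1 (2.10 ± 0.07), mcl1b (2.20 ± 0.10), birc2 (7.12 ± 0.35) and bcl2l10 (1.65 ± 0.06) rose, and mcl1a (0.05 ± 0.10) and xiap (0.29 ± 0.09) did not pass. Among genes that favour cell death bik rose (4.20 ± 0.38) and bada (-2.88 ± 0.29) and bokb (-5.32 ± 0.43) fell.

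Interferon genes, which morpholinos can raise off target, moved both ways. Of 12 tested 5 fell (41.7%, against 38.3% of all genes), 4 rose (33.3%, against 29.9%) and 3 did not pass. Both shares lie near those of all genes. irf7 and mxc had 131 ± 28.3 and 239 ± 45.8 in controls and no more than 1 read in any Yap/Taz KD library, while stat1a rose to 197, 196, 208 and 228, against 46.9, 48.8, 49.6 and 49.7 (2.06 ± 0.06), and isg15 stayed at 8.29 or less in each of the 8 libraries.

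**Figure D5:**
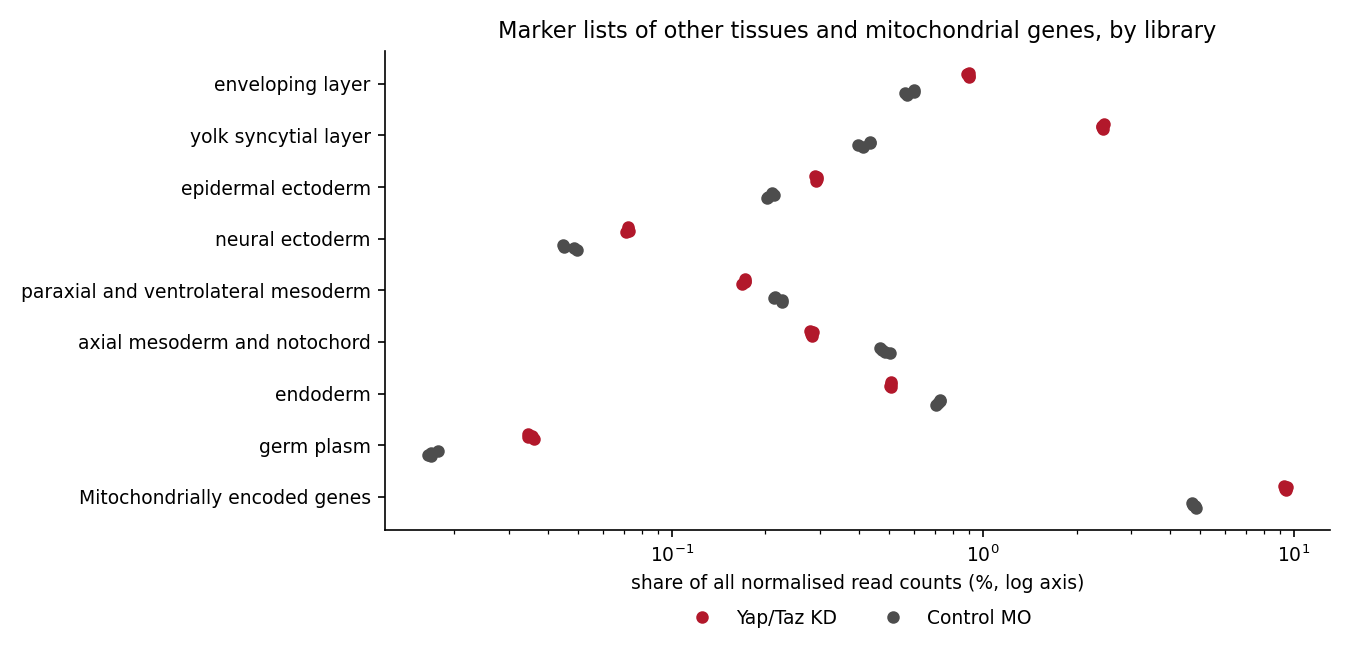
Share of all normalised read counts held by each marker list, 1 point per library on a log axis, Yap/Taz KD above control in each row. The yolk syncytial layer list averages 2.43% in Yap/Taz KD libraries and 0.419% in controls, and the other lists differ by a smaller factor.

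Markers of neighbouring tissues were read as a description of what the clusters held. Genes of the yolk syncytial layer had the largest share of rises among the marker lists: 20 of 25 tested rose, 1 fell and 4 did not pass, with a median log2 fold change of 3.35. The apolipoprotein gene apoeb, which other embryonic cells express as well, rose to 61977, 62005, 60790 and 62622, against 10053, 9879, 10307 and 10096 (2.62 ± 0.02), afp4 to 33034 ± 717, against 1413 ± 61.8 (4.55 ± 0.03), and hnf4a, a liver and yolk transcription factor, to 1117, 1133, 1111 and 1054, against 69.6, 65.6, 113 and 101 (3.68 ± 0.18). Of 27 genes of that list, 4 were at 0 in all Yap/Taz KD libraries and 1 in all controls, and mxtx2, an early defining marker of that layer, was at 1.13 or less in each library. The difference of the summed shares had an exact two-sided permutation p of 0.029 (4 libraries against 4), the smallest this design allows, as it did for every list of markers. The cluster lies between the yolk and the enveloping layer, and the part of their RNA in the other results was not tested.

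Most genes of the endoderm list rose as well. Of 14 tested 9 rose (64.3%, against 29.9% of all genes), 1 fell (7.14%, against 38.3%) and 4 did not pass. The fall was that of sox32 (-1.10 ± 0.02). Which cells of the sample these transcripts come from was not tested. gata5 rose to 2003, 2052, 2074 and 2073, against 189, 276, 241 and 251 (3.11 ± 0.11), gata6 (2.23 ± 0.04) and hnf1ba (7.26 ± 0.27) rose too, and foxa3, well read in both groups, did not pass (0.69 ± 0.03). The summed share of the list went the other way, 0.503% to 0.507% in Yap/Taz KD libraries against 0.708% to 0.731% in controls, since sox32 and sox17 hold most of it.

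Enveloping layer, ectoderm and mesoderm markers moved both ways. Of 23 enveloping layer genes 7 rose, 5 fell and 11 did not pass, with a summed share of 0.892% to 0.902% against 0.563% to 0.603%; krt4, its most read member, had 13412 ± 159.6 against 11207 ± 176 (0.26 ± 0.02), and anxa1a rose (3.40 ± 0.07). Among neural ectoderm genes 11 of 25 fell and 6 rose, and among those of paraxial and ventrolateral mesoderm 9 of 20 fell and 4 rose, both near the shares of all genes. msgn1, a presomitic mesoderm factor, fell to 20, 12, 24.5 and 19.7, against 822, 835, 843 and 902 (-5.45 ± 0.19), and myod1, a muscle factor, rose to 209.8, 256, 232 and 239, against 1.62, 1.53, 0 and 1.18 (6.91 ± 0.31). Epidermal genes were split as well, with 8 falls and 6 rises among 18, and axial mesoderm with 6 falls and 4 rises among 18: gsc rose to 198, 236, 202 and 197, against 1.62, 0, 1.13 and 0 (7.09 ± 0.35), and shha overlapped between the groups (0.16 ± 0.09). Germ plasm genes, of which 4 of 7 rose and 2 fell, included dazl (7.77 ± 0.35) and dnd1, read in the Yap/Taz KD libraries alone at 97.9, 97.4, 90.2 and 106, while ddx4, the germ cell gene most used as a marker, overlapped between the groups (-0.18 ± 0.08). The shares of these lists are in the plot of marker lists by library.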

How the data were processed

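Clusters from 12 samples were amplified with SMART-Seq v4 and sequenced as 50-bp single-end reads. The authors aligned the reads to GRCz10 with STAR, counted them per gene with featureCounts and normalised the counts with DESeq2, with versions not given in the sources used here. The deposited values are labelled as TPM in the file header, but each is a whole number of reads divided by 1 size factor per library. The deposited signal of a gene is thus its normalised read count, as the authors scaled it with DESeq2, and 100% of the values gave whole reads within a tolerance of 0.001. The deposited fold changes and p-values of the authors were not used. The counting is not stated to use strand, so that overlapping and antisense genes, and near-identical copies, cannot be told apart. Of the gene IDs, 13507 had no usable symbol, and 8398 of these were named from a reference table of IDs.

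Genes with a mean of at least 1 over the 12 libraries were tested with limma 3.58.1 (R 4.3.3, trended variance) on log2(normalised read count + 1), a scale that understates changes of low genes, with 4 Yap/Taz KD against 4 control libraries and no covariate. A gene rose or fell at a Benjamini-Hochberg adjusted p under 0.05 over all 17609 genes and a log2 fold change of 1 or more in either direction. Among named genes that rose or fell the adjusted p was at most 0.004. The script was tested on simulated data. Recovered reads were also tested with edgeR 4.0.16, which called 12176 genes, and DESeq2 1.42.0. A group without reads was set at 3 reads over the group. Intervals cover counting error only, and the reads carry no molecular identifiers.

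The comparison, the 33 gene lists and the rule for named genes were chosen with earlier results of these data known, and 59 symbols of the lists matched no gene. The rule took the Yap, Taz, Tead and Vgll genes, genes of the study's pathways, the 8 largest falls and the 8 largest rises with at least 500 normalised read counts and no overlap between the groups, and per list the 3 largest falls and rises with at least 50 and the 2 most abundant genes with a log2 fold change under 0.5. Not all of these are printed, and some genes and part of the apoptosis list are not reported here. Other genes were named for their role after their values were seen. Lists are described by counts and medians, without a set test.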

Additional observations from a re-analysis of the deposited data

Results flagged for a closer look

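Within each group of 4 libraries, a value was set apart when its gap to the nearest other library, divided by the whole range of the group, was above Dixon's 95% critical value for 4 values. Of 478 groups (239 genes named in the text, each in Yap/Taz KD and in control libraries) 38 were set apart in this way, and chance sets apart about 1 in 20. In the Yap/Taz KD group the values set apart were those of atp6v0ca (replicate 3 at 2349, the others at 2173 to 2200.4, ratio 0.842), atp1b1a (replicate 4 at 2076, the others at 2009.9 to 2018, ratio 0.877), bbs1 (replicate 2 at 392, the others at 366 to 368, ratio 0.907), dhx32a (replicate 3 at 549, the others at 511 to 514, ratio 0.930) and dla (replicate 3 at 548, the others at 577 to 578, ratio 0.949). The same held in that group for dnaaf1 (replicate 1 at 464, the others at 444 to 447, ratio 0.835), gsc (replicate 2 at 236, the others at 197 to 202, ratio 0.872), her15.1 (replicate 2 at 278, the others at 264 to 266, ratio 0.913) and hes6 (replicate 2 at 1949.8, the others at 1889.5 to 1891, ratio 0.981). So did ift88 (replicate 3 at 196, the others at 216 to 219.8, ratio 0.837), kifap3a (replicate 4 at 2.19, the others at 6.5 to 7.19, ratio 0.862), oclna (replicate 2 at 153, the others at 134 to 135, ratio 0.945) and tet1 (replicate 2 at 4.79, the others at 1.33 to 1.46, ratio 0.963). The last were tet2 (replicate 3 at 1.44, the others at 0.666 to 0.798, ratio 0.830), vgll4b (replicate 3 at 10.1, the others at 12.7 to 13.1, ratio 0.842) and yap1 (replicate 3 at 1738, the others at 1797 to 1802, ratio 0.917). In the control group they were those of anxa1a (replicate 1 at 559, the others at 668 to 689.9, ratio 0.836), crb2a (replicate 1 at 191, the others at 154 to 159, ratio 0.877), mns1 (replicate 1 at 2623, the others at 2488 to 2495, ratio 0.948) and notch1a (replicate 2 at 3911, the others at 3658 to 3701, ratio 0.831). The fifth was prickle1b (replicate 1 at 1872, the others at 1599 to 1642, ratio 0.839). The remaining 17 groups had reads in a single library and 0 in the other 3, which gives a ratio of 1.000 whatever the count: in the Yap/Taz KD group SANBR, abcc4, cyr61, igfbp3, isg15, jag2b, pkd2, rsph14 and znf1004, and in the control group ankrd1a, fgf3, her12, mxtx2, prkcz, tead1b, tead3a and wnt8a.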

How the results depend on the processing

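The comparison was run under 19 alternatives. The number of genes that passed was 9424 to 12549 against 12003, with the lowest number when a mean of at least 10 was required and the highest without a filter, and it was 11834 to 11964 when 1 library was left out. Genes that rose numbered 4185 to 5491 and genes that fell 5239 to 7068. Of the list members 485 passed, and 439 to 490 did so under the alternatives. Among the values of the 239 named genes 4495 kept their direction and side of the threshold, 9 fell below it, 7 passed it and 24 changed sign. With TMM scaling the log2 fold changes were 0.015 for atp1a1a.1, 0.122 for cxcr4a, 0.050 for dnali1, 0.033 for dnmt3bb.1, 0.011 for noto and 0.007 for vangl2, and with edgeR 0.006 for atp1a1a.1, 0.122 for cxcr4a, 0.050 for dnali1, 0.034 for dnmt3bb.1, 0.009 for noto and 0.007 for vangl2. With DESeq2 they were 0.092 for cxcr4a, -0.062 for cyr61, 0.021 for dnali1 and 0.004 for dnmt3bb.1. With 1 library left out bbs1 lay at -0.004 (without Yap/Taz KD replicate 2) to 0.032, cxcr4a at -0.043 to 0.017 (without control replicate 1), atp6v0ca at -0.019 (without Yap/Taz KD replicate 3) to 0.033 and mcl1a at -0.017 (without control replicate 4) to 0.142, and with reads thinned to 1 depth, chosen after seeing the data, atp6v0ca was at -0.021 and mcl1a at -0.022. None of these genes passed the test. The calls of sox32 and dnah5 were lost under TMM, edgeR and DESeq2, that of wwtr1 with a pseudocount of 10 (0.917) and that of tead3a there and with reads thinned to 1 depth (1.613), while isg15 passed under several alternatives and wnt11 without control replicate 3 (-1.011). The causes were not tested. Leaving out Vgll4l KD replicate 2, also chosen after seeing the data, turned no direction among the genes given in the contrast with Vgll4l KD. Among other named genes some differences changed sign, such as those of foxj1b (-0.02 and 0.39 without that library) and pkd2 (-0.26 and 0.31).

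Replicate numbers did not pair the samples: same-numbered libraries deviated together with correlations of 0 to 0.011 over 11673 genes. With the replicate block 11949 genes passed (5221 higher, 6728 lower), and 2 Nodal genes rose instead of 1. The shares of marker lists kept their direction without the mitochondrially encoded genes. The planned count of motifs in promoters was not run, since no promoter sequence was used here. Depth limits the genes read a few times: 3 reads over the 4 libraries correspond to a mean of 0.547 normalised read counts in Yap/Taz KD and 1.02 in controls.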

Other observations

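Zebrafish carry many genes as pairs of duplicates. Of 647 pairs of symbols that differ only in a final a or b, with both members at 50 or more normalised read counts in the higher group, 67 had both members rising in Yap/Taz KD clusters, 95 had both falling and 114 had 1 rising and 1 falling, while in 371 at least 1 member did not pass. With 29.9% of all genes rising and 38.3% falling, these numbers alone are no result about the pairs. The symbol alone does not show that 2 genes are duplicates, and some pairs are different subunits of a complex. Examples with opposite directions, chosen after their values were seen, are the bicarbonate transporters slc4a4a (log2 fold change 2.25) and slc4a4b (-8.24), the membrane proteins itm2ba (-1.86) and itm2bb (4.56), the catalytic subunits of protein kinase A prkacaa (-4.14) and prkacab (7.14), and the forkhead factors foxc1a (-6.09) and foxc1b (6.15). The semaphorins sema3fa (1.34) and sema3fb (-3.02) and the Tcf factors tcf7l1a (2.55) and tcf7l1b (-1.83) differed in the same manner. Whether reads of near-identical copies were divided between the members was not tested.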
